A study of Mus musculus with 6 samples.

Results

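The regenerating (REG) family of secreted lectins was followed in the newborn mouse pancreas with and without the trypsin inhibitor Spink3. Its 7 members on the array, Reg1, Reg2, Reg3a, Reg3b, Reg3d, Reg3g and Reg4, were taken by gene name from 23343 named genes, and each was read by 1 probe of the 55681 on the array. Of the 7 genes, 6 passed the filter on dim probes and were tested among 13839 genes, while Reg4 did not pass it and is given as values.

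The series compared 3 genotypes on the C57BL/6N background, each measured in the whole pancreas at postnatal day 0.5 on 2 single-colour Agilent arrays. Spink3+/+ was the wild-type control. Spink3-/- lacked the inhibitor, and by the design text its acinar cells die throughout by a route that is not apoptosis and involves autophagy. Spink3-/-XKI/+ carried the same deletion with 1 XKI allele, and there a part of the acinar cells stays normal. The labels do not say what XKI stands for or which promoter drives it, and they do not name an animal for each sample. The p-values therefore measure the spread between these samples alone, part or all of which may be technical.

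REG proteins are small secreted proteins built around a C-type lectin fold. Acinar cells release them into pancreatic juice, and members of the Reg3 group are known as acute-phase products of the inflamed pancreas and as antibacterial lectins of the gut. Their transcription is classically placed downstream of cytokines of the IL-6 and IL-22 families through STAT3, and the glycosyltransferase EXTL3 has been described as a receptor for some of them.

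In the RefSeq annotation of GRCm38.p6 the genes Reg3b, Reg3d, Reg3a, Reg2, Reg1 and Reg3g followed each other on chromosome 6. The pseudogene Gm52853 lay between Reg1 and Reg3g, Gm5576 and Gm6072 flanked the cluster, and Reg4 lay on chromosome 3. The 250 bases before the start site are shown for 4 genes that differ in the size of the response described below, Reg1 and Reg3d with smaller and Reg2 and Reg3b with larger differences. They are written from 5′ to 3′ on each gene's own strand, from RefSeq. Reg1 is read from chr6:78425733-78425982 on the plus strand, Reg2 from chr6:78404905-78405154 on the plus strand, Reg3b from chr6:78370635-78370884 on the plus strand and Reg3d from chr6:78378866-78379115 on the minus strand. Capitals mark matches, on either strand, to TATAAA (the TATA box), CACCTG (the core bound by the acinar factor PTF1) and TTCNNNGAA (the core bound by STAT factors).
Reg1: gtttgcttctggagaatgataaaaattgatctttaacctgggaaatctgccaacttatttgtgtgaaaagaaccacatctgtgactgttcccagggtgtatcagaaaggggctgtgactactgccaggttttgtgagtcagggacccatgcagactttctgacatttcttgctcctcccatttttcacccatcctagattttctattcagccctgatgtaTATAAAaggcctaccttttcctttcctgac
Reg2: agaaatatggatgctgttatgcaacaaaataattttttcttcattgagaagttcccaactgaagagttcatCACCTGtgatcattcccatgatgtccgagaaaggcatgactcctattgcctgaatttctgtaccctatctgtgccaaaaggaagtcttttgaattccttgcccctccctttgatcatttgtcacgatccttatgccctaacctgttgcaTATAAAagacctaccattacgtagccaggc
Reg3b: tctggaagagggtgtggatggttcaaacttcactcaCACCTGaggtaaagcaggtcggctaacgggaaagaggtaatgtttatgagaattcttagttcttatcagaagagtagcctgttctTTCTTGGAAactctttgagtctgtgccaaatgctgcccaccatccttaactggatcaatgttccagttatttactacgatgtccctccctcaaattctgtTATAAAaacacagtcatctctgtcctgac
Reg3d: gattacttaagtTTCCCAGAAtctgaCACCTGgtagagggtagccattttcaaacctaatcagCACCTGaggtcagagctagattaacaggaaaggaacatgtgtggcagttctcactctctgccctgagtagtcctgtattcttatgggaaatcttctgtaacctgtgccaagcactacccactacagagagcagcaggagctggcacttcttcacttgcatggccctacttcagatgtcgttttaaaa

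The motifs were chosen with these promoters in view, and a match is a description of the letters only. TATAAA ended 25 bases before the start in Reg1 and Reg2 and 24 bases before it in Reg3b, and it was found in 4 of the 7 promoters against 12.4% of 32851 RefSeq mouse promoters of this length. CACCTG was found in 5 of the 7, against 17.2% of all promoters, and Reg3d carried it at 224 and at 187 bases before the start. TTCNNNGAA was found in Reg3b, as TTCTTGGAA, and in Reg3d, as TTCCCAGAA, against 7.0% of all promoters. TGGGAA, the other PTF1 core, was found in 5 of the 7 against 21.6% and is not in capitals, since it overlaps the TTCNNNGAA match of Reg3d as its reverse complement. The STAT-type match thus stood in a gene with a larger and in a gene with a smaller difference between genotypes.

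The array probes were 60 bases long, and their sequences were compared with each other. The first 30 bases of each are given below. By the file's mm9 coordinates the whole probes lie at chr6:78378527-78378586 for Reg1, chr6:78357959-78358018 for Reg2, chr6:78333635-78333694 for Reg3a and chr6:78323323-78323382 for Reg3b, all on the plus strand. Those on the minus strand lie at chr6:78325868-78325927 for Reg3d and chr6:78416420-78416479 for Reg3g, and the Reg4 probe spans an intron between 98037005 and 98040251 of chromosome 3.
Reg1: ggaccatctatcaaaagcaaattagatcct
Reg2: acagtactcctttgtctgcaagttcagagc
Reg3a: cccatgacaagggatgaaatacaagaattc
Reg3b: gtgaagactcacctagaaaaagcattttct
Reg3d: gtgtattctctggggactctggcctaagga
Reg3g: gagtacagaattgacatcatgggttgatat
Reg4: gcattgcgctgagatgaaccccaaggataa

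Over the 21 pairs of whole probes, the best alignment without gaps held 18 to 26 identical bases, and the longest shared run was 7 bases. No probe therefore repeated another's sequence over a long stretch. The probes were not compared with the other members' whole transcripts, and cross-hybridisation was not measured. Whether a probe could read a neighbouring member is therefore not decided here.

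The 6 arrays shared 1 slide and 1 scan. Between 42.4% and 50.8% of the spots that are not controls were well above background, no such spot was saturated, and correlations between arrays ran from 0.970 to 0.984. Levels are given as the log2 of the processed signal minus the array's 75th percentile, so a level of 0 is that percentile, and levels of different probes are not compared with each other. Spink3 stood between 9.84 and 10.26 in the controls and between 2.34 and 3.25 on the 4 mutant arrays. The acinar genes Cpa1 and Cela1, the hormone genes Ins1, Ins2 and Gcg and the duct keratin Krt19 were above background on all 6 arrays, as the label of whole pancreas implies.

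The 6 tested REG genes stood higher on both Spink3-/- arrays, and on both Spink3-/-XKI/+ arrays, than on either Spink3+/+ array. The differences were widest for Reg3a, Reg3b, Reg3g and Reg2 in Spink3-/-XKI/+, at 4.32-fold to 9.05-fold, and all 6 lay between 1.69-fold and 3.05-fold in Spink3-/-. Of all genes tested, 16.0% had both Spink3-/- arrays above both Spink3+/+ arrays, and 25.9% had both Spink3-/-XKI/+ arrays above them. None of the 6 passed the threshold of an adjusted p under 0.05 in any comparison (limma with Benjamini-Hochberg adjustment over all genes), where 0.0361% of genes passed for Spink3-/- and 0.00723% for Spink3-/-XKI/+ against Spink3+/+. At an unadjusted limma p under 0.05, 6 of 6 were higher in each of these comparisons, against 2.65% and 5.06% of all genes. Reg3a entered the test only because the mutant arrays measured it, so the counts and medians were also read over the 5 members above background on every array, which gave 5 of 5. The 2 comparisons share the Spink3+/+ arrays, so their values are given side by side and are not independent of each other.

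The median difference over the 6 genes was 1.01 on the log2 scale for Spink3-/- against Spink3+/+, where the median of all genes was -0.01, and 2.22 for Spink3-/-XKI/+ against Spink3+/+, where it was 0.04. Over the 5 members above background on every array the medians were 0.81 and 2.11. Of these 5, a difference above 1 log2 unit was seen for 2 of 5 (Reg3b and Reg3g) in the first comparison, against 1.41% of all genes, and for 3 of 5 (Reg2, Reg3b and Reg3g) in the second, against 2.07% of all genes. With normexp background correction Reg3g stood below 1 in the first comparison, at 0.70. That correction adds an offset of 50 to each signal, which by arithmetic narrows the log2 differences of dim spots. In bulk tissue a different number of cells of a type and a different amount of RNA per cell cannot be told apart, and this holds for every value here.

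**Figure D1:**
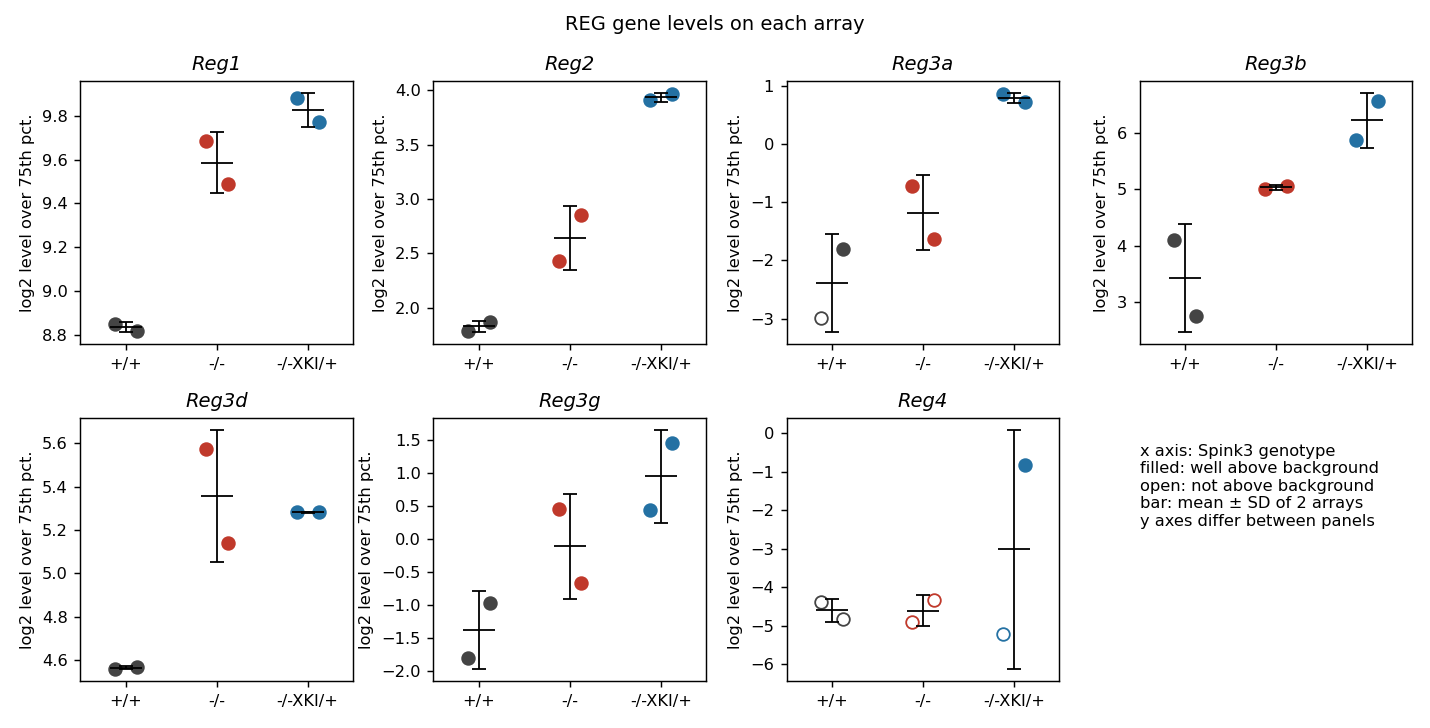
Level of each REG gene on each of the 6 arrays, as log2 of the processed signal over the array's 75th percentile (vertical axis), with arrays grouped by genotype; each point is 1 array, bars are the mean and SD of 2 arrays, and open points mark spots not well above background. For the 6 tested genes no Spink3+/+ array reaches a Spink3-/- or Spink3-/-XKI/+ array, and Reg4 is above background on 1 array.

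Reg1 encodes the pancreatic stone protein, a major secreted product of acinar cells. It read 8.85 and 8.82 in Spink3+/+, 9.69 and 9.49 in Spink3-/-, and 9.88 and 9.77 in Spink3-/-XKI/+. The 3 genotypes did not overlap, and the arrays of a genotype lay within 0.199 of each other. Against Spink3+/+ the difference was 0.75 (SE 0.17, 95% interval 0.35 to 1.16) in Spink3-/-, or 1.69-fold, and 0.99 (SE 0.17, interval 0.59 to 1.40) in Spink3-/-XKI/+, or 1.99-fold. The limma adjusted p was 0.745 for the first and 0.265 for the second. The spot was bright, with processed signals from 57580 to 133600, and not saturated.

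Reg2, the close relative of Reg1 in the mouse, has been linked to islets as well as to the exocrine pancreas. In Spink3+/+ it read 1.79 and 1.87, in Spink3-/- 2.43 and 2.85, and in Spink3-/-XKI/+ 3.91 and 3.96. The genotypes formed 3 separate steps, with replicates closest together at both ends. The Spink3-/-XKI/+ level was 2.11 above Spink3+/+ (SE 0.20, interval 1.63 to 2.59), a 4.32-fold difference with an limma adjusted p of 0.0820. By p-value Reg2 ranked 5 of the 13839 genes in that comparison, the highest place of any REG gene. The Spink3-/- level was 0.81 above Spink3+/+ (SE 0.20, limma adjusted p = 0.778).

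Reg3b encodes the pancreatitis-associated protein, the REG protein best known for its induction in acinar cells during pancreatitis. Reg3b read 4.11 and 2.74 in Spink3+/+, 5.00 and 5.07 in Spink3-/-, and 5.88 and 6.57 in Spink3-/-XKI/+. The controls were the most scattered, 1.36 apart, yet both lay below every mutant array. The difference from Spink3+/+ was 1.61 (SE 0.46, interval 0.48 to 2.74), or 3.05-fold, in Spink3-/- and 2.80 (SE 0.46, interval 1.67 to 3.93), or 6.96-fold, in Spink3-/-XKI/+. The limma adjusted p was 0.881 and 0.265. Without Spink3+/+ replicate 2, the lower control, the Spink3-/- difference was 0.93, and without replicate 1 it was 2.29.

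Reg3a, another secreted lectin of the Reg3 group, was dim and had the widest fitted difference in Spink3-/-XKI/+, though not with normexp background correction (1.51, against 2.76 for Reg3b) nor without Spink3+/+ replicate 1 (2.58, against 3.48) or Spink3-/-XKI/+ replicate 1 (3.12, against 3.14). It read -2.99, not well above background, and -1.80 in Spink3+/+, -0.73 and -1.64 in Spink3-/-, and 0.85 and 0.72 in Spink3-/-XKI/+. The Spink3-/-XKI/+ arrays stood apart from all others, while the dimmer Spink3-/- array lay close to the brighter control. The difference from Spink3+/+ was 3.18 (SE 0.46, interval 2.07 to 4.29), or 9.05-fold, in Spink3-/-XKI/+, with an limma adjusted p of 0.220, and 1.21 (SE 0.46, limma adjusted p = 0.989) in Spink3-/-. Both rest on a control that was measured on 1 of 2 arrays, where the scanner's own error was 47.2% of the signal on the other. Without Spink3+/+ replicate 1, the dim control, the Spink3-/- difference was 0.61, without Spink3+/+ replicate 2 it was 1.80, and without Spink3-/- replicate 1 it was 0.75.

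Reg3g, a bactericidal lectin of the intestinal epithelium, was dim but above background on all 6 arrays. It stood at -1.80 and -0.97 in Spink3+/+, at 0.45 and -0.68 in Spink3-/- and at 0.44 and 1.45 in Spink3-/-XKI/+. The mutant genotypes overlapped each other, and neither overlapped the controls. The difference from Spink3+/+ was 1.27 (SE 0.52, interval 0.01 to 2.53), or 2.41-fold, in Spink3-/- and 2.32 (SE 0.52, interval 1.07 to 3.58), or 5.01-fold, in Spink3-/-XKI/+. The limma adjusted p was 0.989 and 0.408. Leaving out 1 array at a time moved the Spink3-/- difference between 0.71 and 1.83.

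Reg3d, a mouse Reg3 gene related to the islet neogenesis-associated protein of the hamster, departed from this order. It stood at 4.56 and 4.57 in Spink3+/+, at 5.57 and 5.14 in Spink3-/- and at 5.28 and 5.28 in Spink3-/-XKI/+. The controls and the Spink3-/-XKI/+ arrays were each nearly identical in pairs, and the Spink3-/- arrays lay on either side of the latter. The difference from Spink3+/+ was 0.79 (SE 0.20, interval 0.31 to 1.27) in Spink3-/- and 0.72 (SE 0.20, interval 0.24 to 1.20) in Spink3-/-XKI/+, or 1.73-fold and 1.65-fold. The limma adjusted p was 0.785 and 0.483.

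Reg4, a REG gene of intestinal enteroendocrine and other gut epithelial cells that lies apart from the cluster, was not well above background on 5 arrays. Its level was -4.38 and -4.81 in Spink3+/+, -4.89 and -4.32 in Spink3-/-, and -5.21 and -0.82 in Spink3-/-XKI/+. The last of these, replicate 2, was the only array with a measured signal, 66.8 units on the linear scale. A level on 1 of 2 arrays gives no comparison between genotypes.

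**Figure D2:**
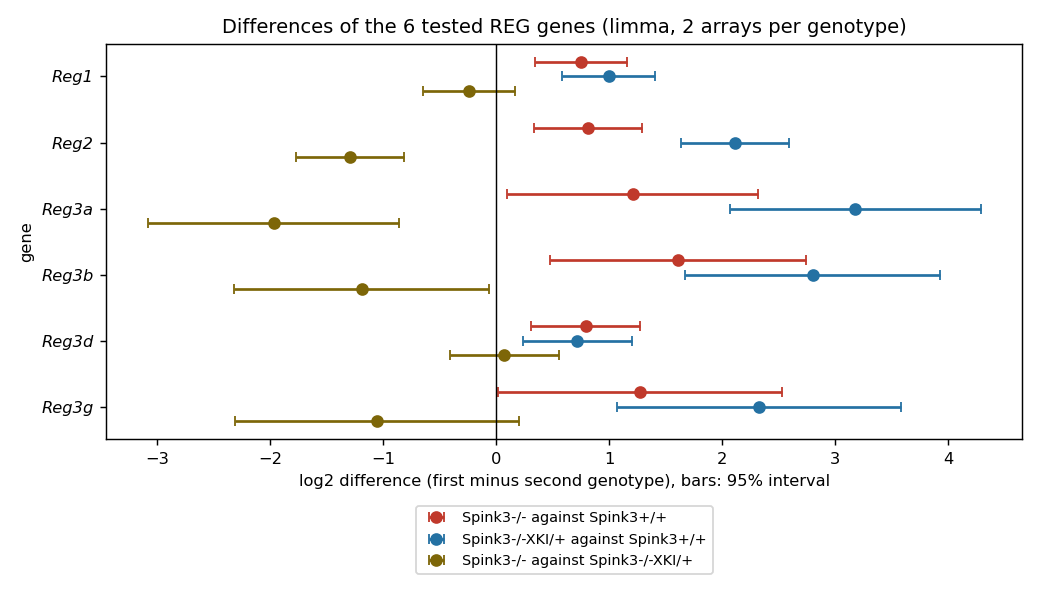
Log2 difference of each tested REG gene in the 3 comparisons (horizontal axis), with points for the limma estimate and lines for its 95% interval. In both comparisons with Spink3+/+ every interval lies above 0, and between the mutants the intervals of Reg1, Reg3d and Reg3g include 0.

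The mutant genotypes were also compared with each other. Of the 6 genes, 4 (Reg1, Reg2, Reg3a and Reg3b) had both Spink3-/- arrays below both Spink3-/-XKI/+ arrays, against 21.6% of all genes, and Reg3d and Reg3g overlapped. No REG gene passed the adjusted limma threshold here, against 0.00723% of all genes, and 3 of 6 were lower in Spink3-/- at an unadjusted limma p under 0.05, against 4.84% of all genes. Reg3a was lower in Spink3-/- by 1.97 (log2 difference -1.97, SE 0.46, interval -3.08 to -0.86), Reg2 by 1.29 (log2 difference -1.29, SE 0.20, interval -1.77 to -0.82) and Reg3b by 1.19 (log2 difference -1.19, SE 0.46, interval -2.32 to -0.06). Their limma adjusted p was 0.479, 0.235 and 0.642. For 5 of the 6 genes the mean level was thus higher in Spink3-/-XKI/+ than in Spink3-/-. Among all genes 42.6% were higher in Spink3-/- than in Spink3-/-XKI/+. The share of dying acinar cells is not given for any sample, and its part in the REG values was not tested.

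For the other 3 genes the mutants could not be told apart beyond their spread. The difference of Spink3-/- from Spink3-/-XKI/+ was -0.24 for Reg1 (interval -0.65 to 0.17, limma adjusted p = 0.802), 0.07 for Reg3d (interval -0.41 to 0.55, limma adjusted p = 0.977) and -1.05 for Reg3g (interval -2.31 to 0.20, limma adjusted p = 0.718). The value for Reg3g moved to -0.49 without Spink3-/- replicate 2, to -0.55 without Spink3-/-XKI/+ replicate 2 and to -1.62 without Spink3-/- replicate 1. The intervals over all 6 arrays leave room for a difference of more than 2-fold for Reg3g, and for less than that for Reg1 and Reg3d. The order of the genotype means was Spink3+/+, Spink3-/-, Spink3-/-XKI/+ for every tested member but Reg3d, whose mutant means differed by 0.07.

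Among the 13839 genes, the share with a larger rise than the member, over the 5 members above background on every array, ran from 0.51% for Reg3b to 2.63% for Reg1 in Spink3-/- and from 0.12% for Reg3b to 4.19% for Reg3d in Spink3-/-XKI/+. No place is read for Reg3a, since its control was measured on 1 of 2 arrays. The span from the lowest to the highest array was 3.83 log2 units for Reg3a and for Reg3b, 3.24 for Reg3g, 2.18 for Reg2, 1.07 for Reg1 and 1.01 for Reg3d. The median gene spanned 0.615, and 21.0% of genes spanned more than 1. A larger span than that of Reg1 was seen in 18.2% of genes, and than that of Reg3d in 20.5%, while for the other 4 members it was at most 3.23%.

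**Figure D3:**
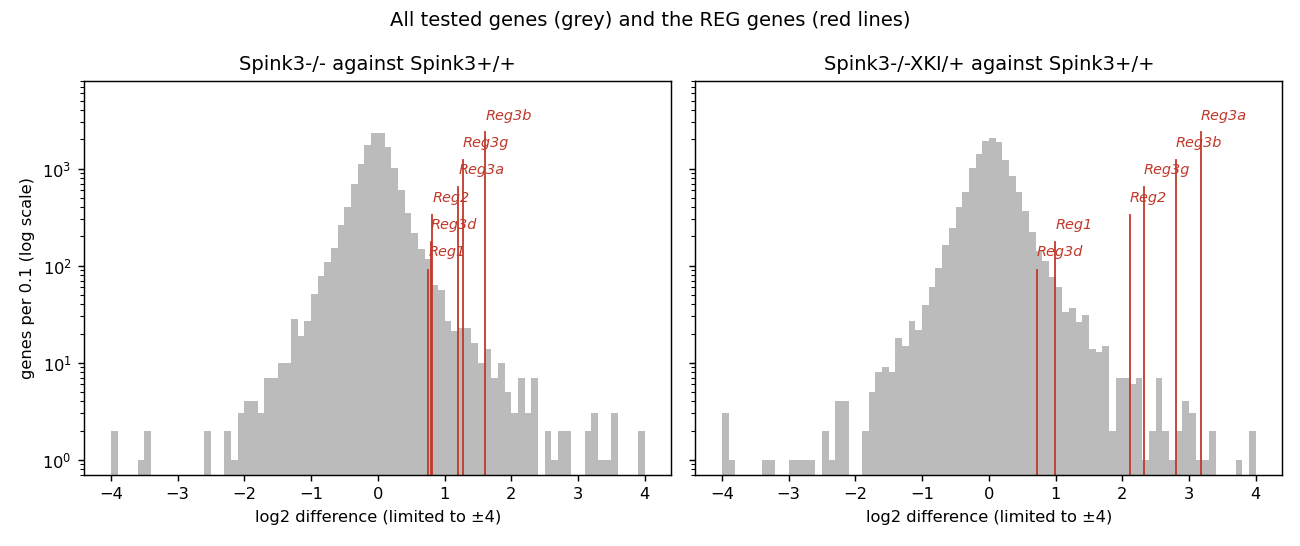
Distribution of the log2 difference over all 13839 tested genes in both comparisons with Spink3+/+ (horizontal axis, log2 difference; vertical axis, number of genes), with lines at the 6 tested REG genes; the vertical axis is logarithmic differences are limited to ±4, and the height of a line carries no value. All 6 lie in the right-hand part of each distribution, from 0.75 to 1.61 in Spink3-/- and from 0.72 to 3.18 in Spink3-/-XKI/+.

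Position on the slide moved with genotype in part. The Spink3+/+ arrays and Spink3-/- replicate 1 lay in 1 row of the slide, and Spink3-/- replicate 2 and both Spink3-/-XKI/+ arrays in the other. Within the first row, the Spink3-/- array exceeded the mean of the controls by 0.85 for Reg1, 0.61 for Reg2, 1.66 for Reg3a, 1.57 for Reg3b, 1.01 for Reg3d and 1.83 for Reg3g. Within the other row, the Spink3-/- array differed from the Spink3-/-XKI/+ mean by -0.34 for Reg1, -1.09 for Reg2, -2.42 for Reg3a, -1.16 for Reg3b, -0.14 for Reg3d and -1.62 for Reg3g. Both within-row contrasts had the sign of the comparison over both rows, except for Reg3d between the mutants.

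No row held both Spink3+/+ and Spink3-/-XKI/+, so that comparison can be separated from the row only through the Spink3-/- arrays. With the row as a block, the Spink3-/-XKI/+ difference from Spink3+/+ was 1.19 for Reg1, 1.69 for Reg2, 4.09 for Reg3a, 2.73 for Reg3b, 1.15 for Reg3d and 3.45 for Reg3g. All 6 kept their sign, and the value for Reg3d moved by more than 1.5 times. Limma adjusted p-values with the block lay between 0.263 and 0.564.

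How alike the members were was measured by the root-mean-square difference between log2 levels over the 6 arrays, each gene centred on its own mean, so that a small value means profiles of the same shape and size. The closest pair was Reg1 and Reg3d, at 0.159 log2 units, and the most distant was Reg3a and Reg3d, at 1.136. Reg3a and Reg3g came to 0.543 and Reg1 and Reg2 to 0.545. Among neighbours on the chromosome, Reg1 and Reg2 were thus among the closer pairs, while Reg3d and Reg3a formed the most distant pair and Reg3b and Reg3d came to 0.975.

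By the same measure, the nearest genes outside the family were drawn from 1755 genes above background on all arrays with a span over 1 log2 unit. Nearest to Reg1 were Wdfy2 at 0.123, the chemokine gene Ccl9 at 0.139 and the myeloid C-type lectin gene Clec4a1 at 0.146. Nearest to Reg2 were Asb11 at 0.292, Jaml, an adhesion molecule of leukocytes, at 0.343, and S100a4, a calcium-binding protein, at 0.364. Nearest to Reg3b were Ermn at 0.595, the myeloid receptor gene Trem2 at 0.653 and Pcp4 at 0.689.

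Reg3d had its nearest profiles in the adenosine receptor gene Adora2b at 0.102, the transcription factor gene Crem at 0.105 and Kctd11 at 0.117. Reg3g was nearest to the smooth muscle genes Acta2 at 0.374 and Myl9 at 0.377 and to the glucose transporter gene Slc2a4 at 0.389. Acta2 stood at 4.13 and 4.42 in Spink3+/+, at 5.65 and 4.47 in Spink3-/- and at 5.10 and 6.77 in Spink3-/-XKI/+. Within the mutant genotypes it was highest on replicate 1 of Spink3-/- and on replicate 2 of Spink3-/-XKI/+, like Reg3g. Acta2 was picked for its likeness to Reg3g, so this match follows from the choice. None of the 15 nearest genes passed the limma threshold in any comparison.

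The receptor gene Extl3 was above background on every array and close to even between genotypes. It stood at 5.29 and 5.10 in Spink3+/+, at 4.69 and 5.43 in Spink3-/- and at 5.15 and 5.21 in Spink3-/-XKI/+. Its difference from Spink3+/+ was -0.13 (SE 0.27, limma adjusted p = 0.992) in Spink3-/- and -0.01 (SE 0.27, limma adjusted p = 0.994) in Spink3-/-XKI/+.

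Of 16 listed cytokines that act upstream of REG genes, 6 were tested and none was called, with a median difference of 0.14 in Spink3-/- and 0.27 in Spink3-/-XKI/+. Il6, the classical inducer of acute-phase genes, was not well above background on any array. Il22, a cytokine that induces REG genes in epithelia, was above background only on the Spink3-/-XKI/+ arrays, at -2.03 and -1.19, and not on the others, where the probe read -2.85 and -3.96 in Spink3+/+ and -3.51 and -2.84 in Spink3-/-. Under the main background setting it was at least 1.93-fold higher in Spink3-/-XKI/+ than in Spink3+/+, with a fitted difference of 1.79 (SE 0.47, limma adjusted p = 0.471). It passed the dim-probe filter only through that genotype. Such a bound sets the brighter mean against the lowest signal counted as above background, and does not carry the spread of the 2 arrays. Cntf differed by 1.21 (SE 0.30, limma adjusted p = 0.785) in Spink3-/-, and Lif, a cytokine that signals through STAT3, by 0.88 (limma adjusted p = 0.989) in Spink3-/- and 1.25 (limma adjusted p = 0.649) in Spink3-/-XKI/+.

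All 13 listed cytokine receptor genes were tested and none was called. The medians were 0.01 in Spink3-/-, with 7 of 13 higher, and -0.04 in Spink3-/-XKI/+, with 5 of 13 higher. Of all genes, 48.8% were higher in Spink3-/- and 56.2% in Spink3-/-XKI/+, and these shares stand beside each list count below. Il22ra1, a subunit of the IL-22 receptor, differed from Spink3+/+ by -0.75 (SE 0.30, limma adjusted p = 0.989) in Spink3-/- and by -0.76 (SE 0.30, limma adjusted p = 0.641) in Spink3-/-XKI/+. Lifr differed by -0.34 (limma adjusted p = 0.989) and -0.64 (limma adjusted p = 0.471), and Ifngr2 by -0.19 (limma adjusted p = 0.858) between Spink3-/- and Spink3-/-XKI/+. The receptor genes thus had no common direction.

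Of 15 genes for JAK-STAT signalling and its feedback, 12 were tested and none was called. Their median difference was 0.23 in Spink3-/-, with 7 of 12 higher, and 0.20 in Spink3-/-XKI/+, with 10 of 12 higher. Among all genes 48.8% and 56.2% were higher. Stat3 stood at 4.57 and 4.93 in Spink3+/+, at 5.24 and 5.25 in Spink3-/- and at 4.57 and 5.38 in Spink3-/-XKI/+, differences of 0.49 (limma adjusted p = 0.989) and 0.23 (limma adjusted p = 0.884). Socs3, a feedback inhibitor that STAT3 induces, stood at 0.74 and 1.23 in Spink3+/+, at 2.57 and 1.35 in Spink3-/- and at 0.87 and 2.28 in Spink3-/-XKI/+. Socs3 was highest on the same array of each mutant genotype as Reg3g, and its differences of 0.97 (SE 0.57, limma adjusted p = 0.989) and 0.59 (SE 0.57, limma adjusted p = 0.842) were within the spread. How many of all genes share these higher arrays was not counted.

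Others with the lowest p-values in that list were Cebpb, a transcription factor of the acute-phase response, at 0.61 in Spink3-/- (limma adjusted p = 0.989), Jak2 at 0.42 in Spink3-/-XKI/+ (limma adjusted p = 0.653), and the kinase gene Pim1 at -1.25 (limma adjusted p = 0.989) and -1.16 (limma adjusted p = 0.696) in the respective mutants. Between the mutants Cish differed by -0.30 (limma adjusted p = 0.771) and Stat5b by -0.31 (limma adjusted p = 0.813). None of these values passed the threshold.

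The acute-phase and acinar stress list was the one with a called gene. Of 21 genes, 16 were tested. In Spink3-/- 14 were higher with 1 called, at a median of 0.66, against 48.8% of all genes higher and 0.0361% called. In Spink3-/-XKI/+ 12 were higher with none called, at a median of 0.32, against 56.2% higher and 0.00723% called. Of these 16, 12 were above background on every array. Saa3, an acute-phase serum amyloid gene, was not well above background on the Spink3+/+ arrays, at -4.09 and -4.15, and stood at -1.17 and -1.52 in Spink3-/- and at -1.83 and -1.38 in Spink3-/-XKI/+. Under the main background setting it was at least 2.31-fold higher in Spink3-/- (fitted log2 difference 2.77, SE 0.23, limma adjusted p = 0.0424). In Spink3-/-XKI/+ it was at least 1.93-fold higher under that setting (fitted log2 difference 2.52, SE 0.23, limma adjusted p = 0.0820). Neither bound carries the spread of the 2 arrays. The normexp difference given below, which the added offset narrows, lies under the first bound. A surrogate replaced the value of dim spots, so the closeness of the control values, and with it the SE, may not be measured spread. Saa3 passed the dim-probe filter only through the mutants. Its call was made in 4 of the 11 alternatives that left out no single array and gave a value, among them the deposited series values, which repeat the main fit. With normexp the difference was 0.56 (limma adjusted p = 0.873, in a range of 0.0394 to 0.873 over those 11), and the call was lost without either Spink3-/-XKI/+ array (limma adjusted p = 0.10 without replicate 1 and 0.148 without replicate 2). Markers of the liver, where many genes of this list are made, had a median difference of 1.23 in Spink3-/-, with 13 of 14 higher, and their part in the list was not tested.

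Saa3 was not lower in Spink3-/- than in Spink3-/-XKI/+, with a difference of 0.26 (SE 0.23, limma adjusted p = 0.858). Reg2, Reg3a and Reg3b had lower means in Spink3-/-, though none of them passed the threshold. Itih4, another acute-phase gene, differed from Spink3+/+ by 1.92 (SE 0.35, limma adjusted p = 0.534) in Spink3-/-. Lgals3, a galectin gene strongly expressed by macrophages, differed by 1.22 (SE 0.21, limma adjusted p = 0.265) in Spink3-/-XKI/+. Between the mutants, Fgb, a fibrinogen chain made in the liver, was higher in Spink3-/- by 1.74 (limma adjusted p = 0.598) and Trp53inp1, a stress-induced gene of acinar cells, by 0.96 (limma adjusted p = 0.543). Differences between the REG genes and these genes were not tested.

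Other C-type lectins were listed to set the family beside genes with the same fold. Of 14, 9 were tested and none was called. The median was -0.03 in Spink3-/-, with 4 of 9 higher, against 48.8% of all genes. It was 0.72 in Spink3-/-XKI/+, with 8 of 9 higher, against 56.2% of all genes. All 9 were lower in Spink3-/- than in Spink3-/-XKI/+, at a median of -0.75, in a comparison where 42.6% of all genes were higher. Of the 9, 6 were above background on every array. Clec10a, a lectin of macrophages and dendritic cells, differed from Spink3+/+ by 1.38 (SE 0.32, limma adjusted p = 0.422) in Spink3-/-XKI/+, and Clec4n, another myeloid lectin, by 0.72 (SE 0.26, limma adjusted p = 0.617). In Spink3-/-, Clec3b differed by -0.89 (SE 0.25, limma adjusted p = 0.868), and Clec4n by 0.53 (SE 0.26, limma adjusted p = 0.989). Colec11 differed between the mutants by -1.54 (SE 0.42, limma adjusted p = 0.543).

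Since REG genes are made in acinar cells, gut and islets, markers of the cell types that the pancreas could hold were read on the same arrays, as the sum of their levels in units of each array's 75th percentile. The 22 acinar markers summed to between 20370 and 23550 in Spink3+/+, 18260 and 24160 in Spink3-/- and 21960 and 22050 in Spink3-/-XKI/+, and 17 of 22 were lower in Spink3-/- at a median of -0.18. The 17 endocrine markers summed to 2685 to 2694, 2592 to 2938 and 3054 to 3149, and the 12 duct markers to 415.4 to 432.5, 487.1 to 673.8 and 398 to 541.5. The acinar sum overlapped between genotypes, and its part in the REG values was not tested.

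The 15 macrophage markers summed to between 139.9 and 142.2 in Spink3+/+, 158.7 and 168.1 in Spink3-/- and 176.1 and 178 in Spink3-/-XKI/+. The genotypes had the same order as for 5 of the 6 REG genes and did not overlap in this sum, which weights the brightest markers most. The order was not particular to macrophages. By genotype means of the log2 level it also held for endocrine (3.44, 3.48 and 3.54) and fibroblast and stellate markers (4.15, 4.22 and 4.42). Intestinal and lymphocyte markers had it too, while acinar, duct, liver, neutrophil and erythroid markers did not. The mean log2 level of the same markers did overlap, at 0.63 and 0.71 in Spink3+/+, 1.06 and 0.64 in Spink3-/-, and 1.20 and 0.98 in Spink3-/-XKI/+. Of these markers, 12 of 15 were higher in Spink3-/- and 13 of 15 in Spink3-/-XKI/+, at medians of 0.20 and 0.41. Among all genes 48.8% and 56.2% were higher. The 12 fibroblast and stellate markers summed to 746.4 to 814.5, 789.6 to 815.2 and 846 to 936.2, while the 10 neutrophil markers ran from 117.8 to 175.8 in Spink3+/+, from 78.45 to 100.6 in Spink3-/- and from 98.05 to 102.4 in Spink3-/-XKI/+. The part of these cells in the REG values was not tested.

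Intestinal tissue was read because Reg3g and Reg4 are known from the gut. Of 19 listed intestinal markers, 8 were tested, and 7 of these were above background on every array. Vil1 was above background on all 6 arrays, while Cdx1, Cdx2, Fabp2 and Muc2 were not well above background on any. Fabp1, a fatty acid binding protein of gut and liver, was above background on 2 arrays, Spink3-/- replicate 1 at -1.42 and Spink3-/-XKI/+ replicate 2 at -1.75. These were the arrays on which Reg3g was highest within its genotype, and the second was the one with a Reg4 signal. The share of all genes with the same higher arrays was not counted. Lct was above background on Spink3-/- replicate 2 alone, at -1.49. The 8 intestinal markers that were tested, which include genes the pancreas also expresses, summed to 1002 to 1078, 1005 to 1049 and 1077 to 1095 in the order of genotypes used above. The part of gut tissue in the REG values was not tested.

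The 14 liver markers summed to between 144.2 and 160.8 in Spink3+/+, 202.5 and 218.1 in Spink3-/- and 158.7 and 164.6 in Spink3-/-XKI/+, with Alb and Afp above background on all arrays. They were highest in Spink3-/-, where of the tested REG genes only Reg3d had its highest mean. The 5 erythroid markers summed to 410.5 to 925, 444.6 to 457.6 and 287.9 to 347, and the 5 lymphocyte markers to 31.91 to 33.62, 28.79 to 46.48 and 35.28 to 40.22. Their part in the REG values was not tested.

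**Figure D4:**
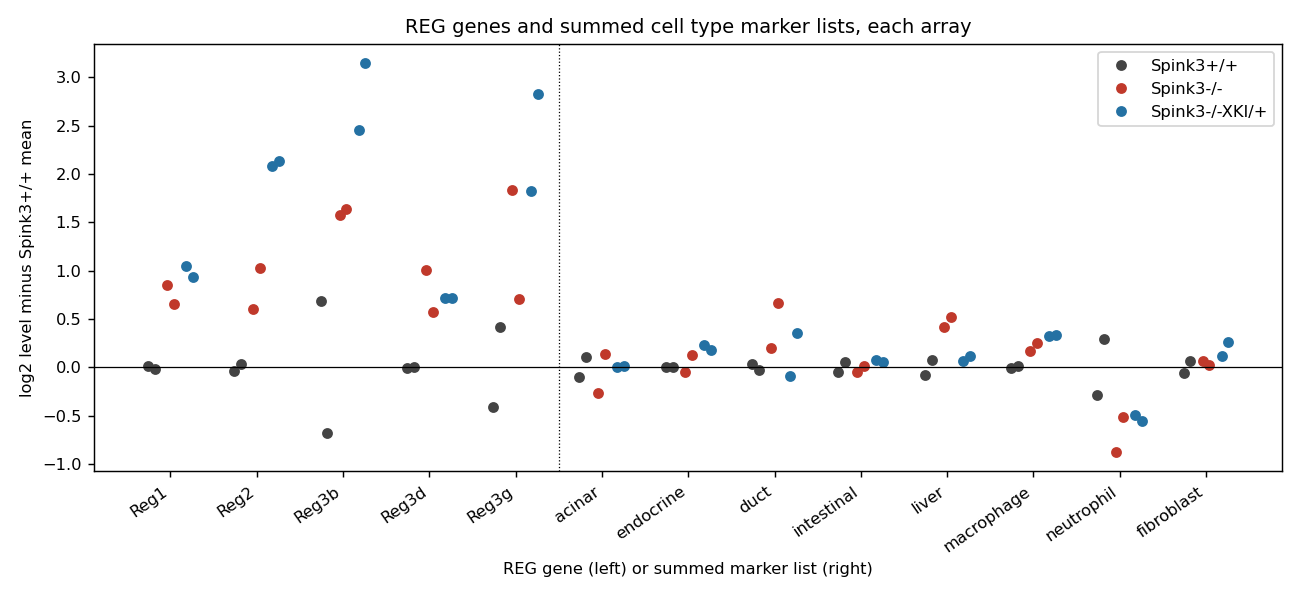
Summed level of each cell type marker list per array, relative to the mean of the Spink3+/+ arrays on a log2 scale, beside the 5 REG genes above background on all arrays; each point is 1 array and colours mark genotypes. The macrophage sum steps from Spink3+/+ through Spink3-/- to Spink3-/-XKI/+, although the mean log2 level of these markers overlaps. Endocrine, intestinal and fibroblast markers have the same order by genotype means of the log2 level, which is not plotted. The plotted intestinal sums overlap between Spink3+/+ (1002 to 1078) and Spink3-/- (1005 to 1049), and the acinar sum overlaps between genotypes.

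Whether Reg2 was called depended on the processing. Reg2 in Spink3-/-XKI/+ passed the limma threshold with normexp background correction (1.97, limma adjusted p = 0.0057) and with a robust, trended spread (2.11, limma adjusted p = 0.018), while over the 12 alternatives that left out no single array its adjusted p ran from 0.0057 to 0.779. With 1 array left out at a time, the Reg2 difference in that comparison ran from 2.07 to 2.15. In the same comparison Reg3b ran from 2.12 to 3.48 and Reg3a from 2.58 to 3.77. Between the mutants Reg2 ran from -1.50 to -1.09. Without Spink3-/-XKI/+ replicate 1, Reg4 entered the test on the array that measured it. It differed by 3.77 from Spink3+/+ and by -3.79 between the mutants, values that rest on 1 array. A fit without an array of a compared genotype leaves 1 array in that genotype. The number called over all genes varied widely in such fits, so no REG call is read from them.

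For the dim members the size of the difference depended on the background correction. The offset of 50 in normexp narrows differences of dim spots by arithmetic, and its share in the values below was not tested. With normexp, Reg3a was 0.33 higher in Spink3-/- and 1.51 in Spink3-/-XKI/+, and Reg3g 0.70 and 1.40, in place of the larger values above. Between the mutants Reg3a was at -1.18 and Reg3g at -0.70. Sign turned for no member in the comparisons with Spink3+/+, either over these 12 alternatives or with any 1 array left out.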

How the data were processed

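Total RNA of 6 whole pancreas samples was hybridised to 6 single-colour arrays, and the labels gave each sample's genotype. The deposited intensity values come from version 10.7.3.1 of Agilent's Feature Extraction. Per the file headers, background was subtracted and a spatial trend removed within each array, a surrogate replaced the value of dim spots, and nothing was done between arrays. Flags for dim, saturated and outlier spots were read from the same deposited files. The deposited series values equalled these intensities within 0.1% on all 62976 spots, with column medians of 15.2 to 19.9, so their scale is linear and uncentred.

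Here, log2 signals were taken minus each array's 75th percentile, without outlier spots. Probes had to be well above background on both arrays of some genotype, and the brightest such probe stood for its gene. RefSeq named 26762 probes by accession, the REG probes among them, 3819 by symbol and 639 by older symbol. A further 1184 kept the file's name, and 23277 had none. The limma package (3.58.1, R 4.3.3, lmFit and eBayes, two-sided) was fitted on 6 arrays with 3 residual degrees of freedom. The p-values were adjusted over 13839 genes by Benjamini-Hochberg, with calls under 0.05. Further tools were version 1.17.8 of data.table, Python 3.11.15 and matplotlib 3.10.9.

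The members, gene lists, marker lists and motifs were chosen with earlier results of these data known. Named outside the family were Spink3, Extl3, Il6, Il22, Stat3, Socs3 and Saa3, in each pathway list the called members or else the 2 lowest p-values per comparison, and the 3 nearest profiles of each member above background on all arrays. For Stat3, the brighter of 2 probes was used. Tested on simulated data for Spink3-/- against Spink3+/+ (13839 genes), the fit recovered 28.4% of changes of 1 log2 unit, 70.8% of 2, 87.2% of 3 and 94.0% of 4. The 5 simulations held 250 changed genes of each size in total, with the spread shuffled among genes regardless of level. Recovery of dim members, or with fewer changed genes, was not simulated. The alternatives were 12 that left out no single array and 6 that each left out 1. Among the 12, the deposited series values repeat the main fit. Promoters of all 7 genes were found in RefSeq sequences for GRCm38.p6.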

Additional observations from a re-analysis of the deposited data

How the results depend on the processing

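Leaving out no single array, no REG gene was called under 10 of the 12 alternatives. These include the deposited series values, which repeat the main fit, and the fit of only the 2 genotypes compared, which used 4 arrays. Under normexp background correction and under a trended, robust spread, 1 gene was called (Reg2, Spink3-/-XKI/+ against Spink3+/+). With 1 array left out at a time, a lone array is assumed to vary like the other genotypes. Where a compared genotype kept 1 array, REG calls are not read. Under all these settings, no member changed sign in a comparison with Spink3+/+. Between the mutants Reg3d alone changed sign, at -0.14 with the slide row as a block and without Spink3-/- replicate 1. It was not called with the block.

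Over all genes, limma called 5 for Spink3-/- and 1 for Spink3-/-XKI/+ against Spink3+/+ and 1 between the mutants. In that order the counts were 1, 2 and 0 with normexp, 1, 0 and 3 with the slide row as a block, and 2, 2 and 0 with a trended, robust spread. For Spink3-/- against Spink3+/+ the count was 1 with no filter on dim probes, 1 with probes above background on all 6 arrays, 2 with the mean of a gene's probes and 11 with only the 2 genotypes compared. For Spink3-/-XKI/+ against Spink3+/+ it was 3 with quantile normalization. Between the mutants it was 4 with quantile normalization, 2 with spike-in scaling, and 0 with no filter, with probes above background on all 6 arrays and with only the 2 genotypes compared. Leaving out 1 array gave 1 to 275, 1 to 293 and 0 to 284. The cause was not tested.

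The labels do not say whether the replicate numbers pair the samples. Deviations from the genotype means of same-numbered arrays correlated at -0.06, 0.03 and 0.20, the last between the mutants. A weak pairing cannot be told from these values. With the replicate block, all genes called came to 1 for Spink3-/- against Spink3+/+, 1 for Spink3-/-XKI/+ against Spink3+/+ and 0 between the mutants, and no REG gene was called (Reg2 in Spink3-/-XKI/+ 2.11, limma adjusted p = 0.234).

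Scaling on spike-in probes moved the median of all genes to 0.10, 0.08 and 0.02 and the share of genes higher from 48.8%, 56.2% and 42.6% to 66.2%, 61.5% and 53.9%. The dim members Reg3a, Reg3g and Reg4 are limited by signal over background.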
